A study of Mus musculus with 12 samples.

Results

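The genes described here encode the nuclear subunits of the mitochondrial respiratory chain and of ATP synthase, with the complex I assembly factors named Ndufaf. They were taken by symbol from the RefSeq annotation of GRCm38: protein-coding genes beginning with Nduf, Uqcr, Cox4, Cox5, Cox6, Cox7, Cox8 or Atp5, together with Sdha, Sdhb, Sdhc and Sdhd. This gave 96 of 21887 protein-coding genes. Each gene was represented by the peak with the highest mean count among those centred within 1 kb of either gene end, and 87 of the 96 genes had such a peak, each a different one. All 87 peaks passed the filter on low counts.

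The measurement was ATAC-seq, in which a transposase inserts adapters into DNA that nucleosomes leave exposed, so that counts over a peak reflect how accessible that stretch of chromatin is. The 12 libraries came from bone marrow of NZO/HILtJ mice, an inbred strain that becomes obese and diabetic, and the comparison asks how accessibility differs between 3 and 18 months of age. Each of the 4 groups held 3 mice: females at 3 months, males at 3 months, females at 18 months and males at 18 months. All animals were of that single strain and the labels name no treatment, transgene or mutation. The protocol text describes sorting of CD3e and CD8 positive T cells, yet Cd3e, Cd4, Cd8a and Cd8b1 had no peak within 1 kb of a gene end. Peaks were present at 7 of 13 T cell markers, Cd3d and Cd3g among them, and at erythroid and neutrophil genes, and the libraries are treated as bone marrow, as labelled. Total counts in peaks ranged from 7668099 to 12756647 per library. Run 14 held the females of 18 months and run 15 the males of that age. Runs 28 to 31 held the libraries of 3 months, so that no run contained both ages. Age and run cannot be told apart for any value below, and at 18 months neither can sex and run.

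Electrons from NADH enter the chain at complex I, the proton-pumping NADH dehydrogenase (Nduf genes), and electrons from succinate enter at complex II (Sdh genes). Complex III, the cytochrome bc1 complex (Uqcr genes), passes them to cytochrome c, and complex IV, cytochrome c oxidase (Cox genes and Ndufa4), hands them to oxygen. Complex V, the ATP synthase (Atp5 genes), uses the proton gradient to make ATP. In bone marrow, haematopoietic stem cells lean on glycolysis, while dividing progenitors and the mitochondria-rich precursors of red cells rely more on respiration, and mature red cells have no mitochondria. The promoters of these genes are known targets of the transcription factors NRF1, GABPA (an ETS factor), YY1 and the oestrogen-related receptors.

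The stretches before the start sites are printed for 5 genes, from RefSeq on GRCm38.p6, each 5′ to 3′ on the gene's own strand and ending at the base before the start. Cox6b2 and Ndufv2 had the lowest fold changes with age among genes whose promoter window overlapped the peak, and Ndufa9 had the highest. Atp5g2 and Cox6a1, added afterwards, were the 2 genes that fell with age and carried an NRF1 core. Capitals mark matches on either strand to any of 6 motifs: NRF1 core GCATGCGC, ETS core CCGGAAG, YY1 core AAGATGGCG, oestrogen-related receptor site TCAAGGTCA, CCAAT box CCAAT and GC box GGGCGG. Each stretch is 250 bases, except that of Cox6b2, which was ended at 131 bases where it meets an end of the neighbouring gene Fam71e2. Ndufa7, the next highest in fold change, is not shown because annotated genes cover the bases before its start.
Cox6b2 (chr7:4753095-4753225, - strand): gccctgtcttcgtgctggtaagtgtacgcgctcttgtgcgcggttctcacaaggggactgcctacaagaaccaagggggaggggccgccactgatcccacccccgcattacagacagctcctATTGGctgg
Ndufv2 (chr17:66101560-66101809, - strand): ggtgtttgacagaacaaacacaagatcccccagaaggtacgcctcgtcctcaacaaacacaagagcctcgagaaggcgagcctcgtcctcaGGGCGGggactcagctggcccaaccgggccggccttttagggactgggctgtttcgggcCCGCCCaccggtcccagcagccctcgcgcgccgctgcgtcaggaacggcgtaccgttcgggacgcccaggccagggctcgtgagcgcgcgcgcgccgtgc
Ndufa9 (chr6:126849145-126849394, - strand): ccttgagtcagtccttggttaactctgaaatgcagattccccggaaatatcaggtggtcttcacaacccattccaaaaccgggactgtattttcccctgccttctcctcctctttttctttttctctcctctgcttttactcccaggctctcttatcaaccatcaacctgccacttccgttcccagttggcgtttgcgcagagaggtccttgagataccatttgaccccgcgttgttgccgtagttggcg
Atp5g2 (chr15:102671048-102671297, - strand): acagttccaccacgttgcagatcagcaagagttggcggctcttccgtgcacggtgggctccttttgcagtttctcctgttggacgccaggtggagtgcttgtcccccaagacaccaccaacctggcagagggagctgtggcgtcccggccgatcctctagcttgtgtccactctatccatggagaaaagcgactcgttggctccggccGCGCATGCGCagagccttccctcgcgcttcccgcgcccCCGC
Cox6a1 (chr5:115348959-115349208, - strand): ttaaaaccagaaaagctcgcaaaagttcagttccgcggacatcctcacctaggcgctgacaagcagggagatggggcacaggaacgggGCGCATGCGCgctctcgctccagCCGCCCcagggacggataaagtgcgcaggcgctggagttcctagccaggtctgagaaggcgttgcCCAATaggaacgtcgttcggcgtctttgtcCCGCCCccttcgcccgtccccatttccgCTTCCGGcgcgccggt

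The NRF1 core of Atp5g2 began 40 bases before the start and that of Cox6a1 160 bases before it, and in both genes the core also read on the other strand, as the run GCGCATGCGC. Cox6b2 had an inverted CCAAT box 9 bases before its start. The last 4 capitals of Atp5g2 are the first bases of an inverted GC box that runs past the start. Ndufv2 had GC boxes 159 and 100 bases before its start. No capitals appear in the stretch of Ndufa9, whose YY1 core lay just after the start. These are matches of letters, and binding was not measured.

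At 18 months, 18 of the 87 respiratory gene peaks were lower than at 3 months and 0 were higher, by the edgeR quasi-likelihood test adjusted for sex and with a Benjamini-Hochberg adjusted p under 0.05 over all 75164 tested peaks. By an unadjusted p under 0.05, 29 of the 87 (33.3%) passed, beside 33.4% of all tested peaks and 43.2% of peaks chosen in the same way for any protein-coding gene. The background differed with the kind of peak. Of all tested peaks 11.6% were called lower and 9.43% higher, whereas of the 10864 tested peaks chosen in the same way for any protein-coding gene 25.9% were lower and 3.76% higher. The respiratory share was 20.7%, above that of all peaks and under that of gene ends in general. The order against all peaks depended on the scaling: with library scalings that follow peak abundance or peak width, 6.9% of the respiratory peaks were lower, beside 10.4% and 9.51% of all tested peaks. Fold changes were small. The median log2 fold change of 18 over 3 months was -0.16 over the respiratory peaks, with a range from -0.60 to 0.22 and 74 of 87 values negative (44 of 87 with the scaling by abundance). It was -0.14 over all gene-end peaks and 0.02 over all tested peaks. Negative values were also found for 8827 of the 12159 protein-coding genes with a tested peak. Only Cox6b2 fell by 1.5-fold or more, and no gene of the family rose by that much.

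**Figure D1:**
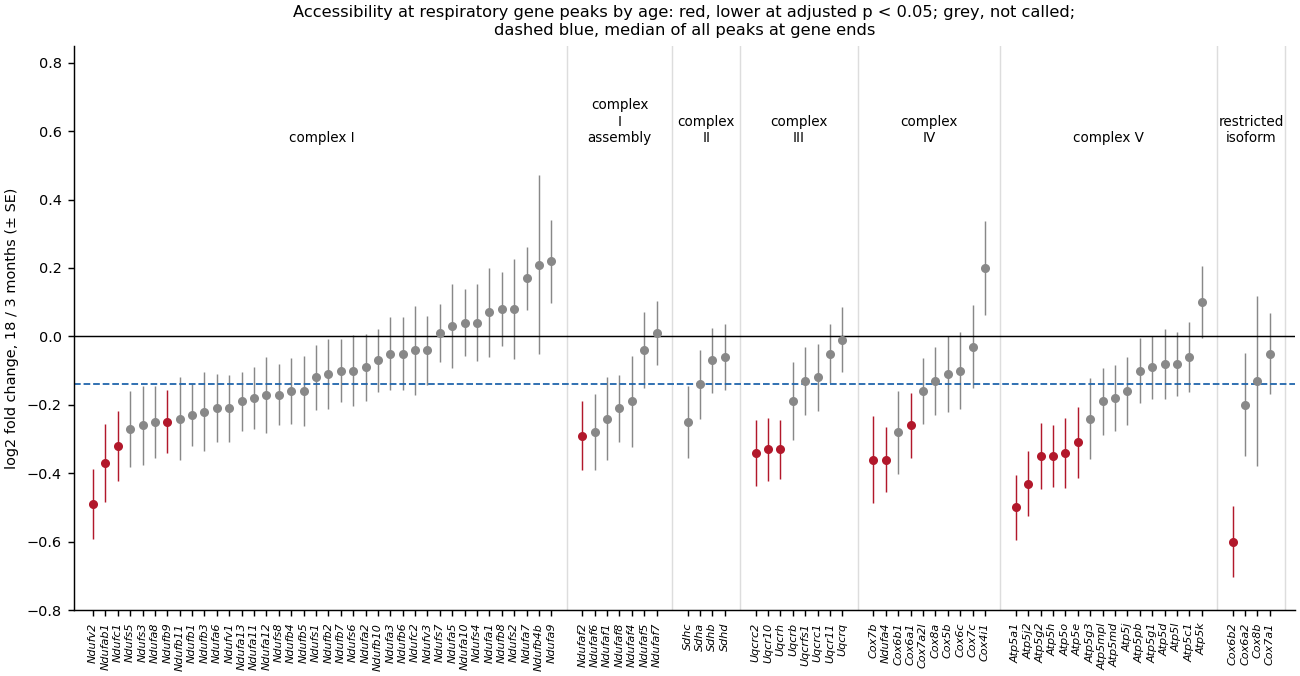
Log2 fold change of accessibility, 18 over 3 months (y axis, ± SE), for the 87 respiratory gene peaks, ordered within complexes on the x axis; red points passed the test and grey points did not. All 18 red points lie below 0, from -0.25 to -0.60, and the dashed line at -0.14 is the median of all gene-end peaks.

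Markers of other cells moved with age in the same libraries. All 13 erythroid markers with a peak were lower at 18 months, with a median log2 fold change of -1.05, and their summed level was 234 to 285 CPM at 18 months and 421 to 535 CPM at 3 months. Hbb-bs, a beta globin gene, and Epb42, a red-cell membrane protein, led the list at -1.26 and -1.15 (edgeR adjusted p = 2.14e-12 and 1.52e-11). Of 20 neutrophil and monocyte markers 12 were higher and 0 lower, with summed levels of 459 to 548 CPM against 325 to 523 CPM. The summed B cell markers were 120 to 124 CPM in females and 85.0 to 94.9 CPM in males of 18 months, beside 103 to 129 CPM at 3 months, and 0 of 12 passed for age (3 at an unadjusted p under 0.05). Of 7 T cell markers 2 were higher and 1 lower, with summed levels of 60.9 to 88.2 CPM at 18 months and 51.9 to 73.9 CPM at 3 months. Of 6 plasma cell markers 1 was higher and 1 lower, and of 4 megakaryocyte markers 1 was lower. By edgeR 0 of 4 NK cell and 0 of 4 stem cell markers passed, with 1 of each at an unadjusted p under 0.05. Fewer cells of a type and less open chromatin per cell cannot be told apart in bulk libraries, and the part of these shifts in the respiratory values was not tested.

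The spread between mice was also read directly from the libraries. In 7 of the 87 peaks every library of 18 months lay below every library of 3 months, and in 0 every library lay above. Over all tested peaks 5.04% were lower without overlap and 2.2% higher, and over gene-end peaks 8.79% and 0.874%, beside 8.05% of the respiratory peaks lower. The 7 genes were Uqcrc2, Uqcr10, Atp5a1, Atp5j2, Atp5h, Atp5mpl and Cox6b2, of which Atp5mpl did not pass the edgeR test (log2 fold change -0.19, adjusted p = 0.151). By complex, the called peaks were 4 of 38 in complex I, 1 of 7 among its assembly factors, 0 of 4 in complex II, 3 of 8 in complex III, 3 of 10 in complex IV, 6 of 16 in complex V and 1 of 4 among tissue-restricted isoforms. The share was 10.5% in complex I, 37.5% in complexes III and V and 30.0% in complex IV, beside 25.9% of gene-end peaks and 11.6% of all tested peaks. No test of a difference between complexes was made.

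In complex I the genes that fell were Ndufv2, Ndufab1, Ndufc1 and Ndufb9. Ndufv2, an iron-sulphur subunit of the module that oxidises NADH, had the lowest fold change of the complex (peak at chr17:66100749-66102439). Levels are given in CPM, counts scaled to a common library size with TMM factors. At 18 months the level of Ndufv2 ran from 39.7 over a median of 43.2 to 59.8, against 51.2, 67.3 and 78.5 at 3 months. The 3 males of 18 months lay together at 39.7, 40.6 and 40.7, below every other library. The groups overlapped through the lowest library of 3 months, a male at 51.2, and 2 females of 18 months at 57.4 and 59.8. Means were 47.3 ± 9.0 CPM in the older and 66.2 ± 9.64 in the younger mice (SD, n = 6 per age), a log2 fold change of -0.49 ± 0.103 (SE, edgeR adjusted p = 0.000377).

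Ndufab1, the mitochondrial acyl carrier protein, which also serves fatty acid synthesis, stood at 14.8 to 23.6 CPM (median 17.9) in old and 19.3 to 28.2 (median 22.9) in young mice. Its peak is at chr7:122101530-122102188 and the groups overlapped. The change was -0.37 ± 0.113 on the log2 scale (SE, edgeR adjusted p = 0.0159). Ndufc1, a small accessory subunit of the membrane arm, averaged 31.4 ± 2.08 CPM in young and 25.2 ± 4.17 in old mice (SD, n = 6 per age) and fell by 0.32 on the log2 scale (edgeR adjusted p = 0.0179), a call that ended with the abundance scaling (-0.20, adjusted p = 0.106) and the width scaling (-0.21, adjusted p = 0.115). Ndufb9, another membrane-arm subunit, fell by 0.25 on the log2 scale (edgeR adjusted p = 0.0432) at a wide peak of 4544 bp that it shares with Tatdn1. That call ended with total counts (-0.17, adjusted p = 0.0962), the abundance scaling (-0.04, adjusted p = 0.711) and the width scaling (-0.02, adjusted p = 0.92). Ndufs5 and Ndufs3, the latter a core subunit of the module that reduces ubiquinone, had log2 fold changes of -0.27 and -0.26 and did not pass (edgeR adjusted p = 0.0724 and 0.0946).

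At the other end of complex I, Ndufa9, an accessory subunit next to the ubiquinone site, had 14.2 to 23.7 CPM (median 16.0) at 18 months and 11.7 to 18.3 CPM (median 15.2) at 3 months. A pair of females of 18 months lay highest, up to 23.7, and the ranges of the ages overlapped. Its log2 fold change was 0.22 ± 0.121 (SE) and did not pass (edgeR adjusted p = 0.207). Ndufb4b, a copy of the accessory subunit gene Ndufb4, had a value of 0.21 at a narrow peak of 367 bp with only 1.14 to 4.64 CPM over the 12 libraries (edgeR adjusted p = 0.626). The spread between these libraries was larger than the difference between the ages. Over the 38 complex I peaks the median log2 fold change was -0.12, with 28 negative and 10 positive values. The majority sign turned with the abundance scaling (16 negative, 22 positive, median 0.04) and the width scaling (18 negative, 20 positive, median 0.01).

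Of the assembly factors, which help to build complex I without remaining in it, Ndufaf2 fell by 0.29 on the log2 scale, from 33.5 ± 3.57 CPM in young mice to 27.3 ± 3.87 in old mice (SD, n = 6 per age, edgeR adjusted p = 0.0302). This call ended with total counts (-0.22, adjusted p = 0.0713), the abundance scaling (-0.16, adjusted p = 0.182) and the width scaling (-0.23, adjusted p = 0.0802). Its peak at chr13:108157984-108159346 is shared with Ercc8, a DNA repair gene that starts 113 bp away on the other strand. Ndufaf6 had a similar value of -0.28 and did not pass (edgeR adjusted p = 0.0633). Ndufaf7, a methyltransferase that modifies a complex I subunit, was the highest of the 7 at 0.01 (edgeR adjusted p = 0.956), with means of 41.0 CPM in old and 40.6 in young mice.

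No complex II gene passed the test. Sdhc, a membrane anchor, had 21.8 to 35.1 CPM (median 25.0) in old mice and the narrow range of 30.1 to 32.4 CPM (median 31.5) at 3 months. One female of 18 months, at 35.1, lay above all libraries of 3 months, and the other 5 lay below them. For Sdhc the log2 fold change was -0.25 ± 0.104 (SE, edgeR adjusted p = 0.0783). Sdha, the flavoprotein that oxidises succinate, was at -0.14, Sdhb, the iron-sulphur subunit, at -0.07, and Sdhd, the second anchor, at -0.06. Their edgeR adjusted p-values were 0.337, 0.647 and 0.686. With the abundance scaling Sdhb and Sdhd were positive (0.12 and 0.11), with no call.

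In complex III, Uqcrc2, Uqcr10 and Uqcrh fell and the other 5 peaks did not pass. Uqcrc2, a core protein of the matrix side, stood at 26.3 to 35.6 CPM (median 31.9) at 18 months and 37.4 to 41.0 CPM (median 39.6) at 3 months, without overlap. The change was -0.34 ± 0.0965 on the log2 scale (SE, edgeR adjusted p = 0.00925) at chr7:120633929-120636186. Uqcr10, a small subunit, likewise did not overlap, at 37.3 to 46.8 CPM (median 42.9) against 47.8 to 58.2 CPM (median 53.8). Its log2 fold change was -0.33 ± 0.0925 (SE, edgeR adjusted p = 0.00682), and its peak also covers the start of Zmat5. Uqcrh, the hinge protein that contacts cytochrome c1, fell by 0.33 on the log2 scale (edgeR adjusted p = 0.00482). Uqcrq, which binds ubiquinone, had the highest value, -0.01, with nearly equal means of 62.7 and 63.0 CPM. All 8 values of the complex were negative with TMM factors. With the abundance scaling Uqcrq was called higher (0.20, adjusted p = 0.0197) and 4 of the 8 values were positive, Uqcr11 (0.17) and Uqcrc1 (0.02) among them, and all 3 calls of the complex ended with the abundance and the width scaling.

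In complex IV, Cox7b, Ndufa4 and Cox6a1 fell. Ndufa4, first assigned to complex I and now counted with cytochrome c oxidase, had 44.9 to 59.5 CPM (median 46.4) at 18 months and 51.0 to 69.1 CPM (median 63.4) at 3 months. A single library on each side made the groups overlap: a female of 18 months at 59.5 and a male of 3 months at 51.0. Ndufa4 had a log2 fold change of -0.36 ± 0.0938 (SE, edgeR adjusted p = 0.00391). Cox7b, a small subunit encoded on the X chromosome, averaged 9.92 ± 2.76 CPM in old and 12.6 ± 2.03 in young mice (SD, n = 6 per age). Its log2 fold change was -0.36 ± 0.126 (SE, edgeR adjusted p = 0.0343), and the call ended when sex was left out of the model (adjusted p = 0.101), with total counts (-0.29, adjusted p = 0.0903) and with the width scaling (-0.34, adjusted p = 0.0525). Cox6a1, the widespread form of its subunit, fell by 0.26 on the log2 scale (edgeR adjusted p = 0.0419). The call of Ndufa4 ended with the abundance and width scalings (-0.16 and -0.19, adjusted p = 0.0896 and 0.0714), and that of Cox6a1 with these (-0.07 and -0.09, adjusted p = 0.51 and 0.451) and with total counts (-0.18, adjusted p = 0.0922). Cox4i1, the common isoform of the subunit that starts assembly, was the highest at 0.20 ± 0.138 (SE, edgeR adjusted p = 0.309), with 9.41 to 14.5 CPM at 18 months and 6.99 to 13.1 CPM at 3 months. Its sign depended on the peak taken, and was negative when peaks within 3 kb were allowed.

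Complex V held 6 of the 18 called peaks, across the parts of the enzyme. With the abundance scaling Atp5a1 and Atp5j2 remained called, and with the width scaling these and Atp5o (adjusted p = 0.0499). Atp5a1 encodes the alpha subunit of the F1 head. Its values were 25.2 to 32.4 CPM (median 28.1) at 18 months and 33.0 to 45.2 CPM (median 40.4) at 3 months, with no overlap. The log2 fold change was -0.50 ± 0.0953 (SE, edgeR adjusted p = 0.000117), at a peak shared with Haus1. Atp5j2, a subunit of the membrane part, also did not overlap, at 27.5 to 32.3 CPM (median 30.6) against 33.5 to 44.6 CPM (median 41.1). Its log2 fold change was -0.43 ± 0.0964 (SE, edgeR adjusted p = 0.000981) at chr5:145189971-145192559. The call depended on which of its peaks was taken, since at the peak nearest to a gene end the value was -0.21 (adjusted p = 0.307).

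The other 4 subunit genes fell by similar amounts. Atp5g2, one of the genes for the proton-carrying c ring, and Atp5h, of the peripheral stalk, both had a log2 fold change of -0.35 (edgeR adjusted p = 0.00616 and 0.0036). Atp5o, which joins the stalk to the F1 head, was at -0.34 (edgeR adjusted p = 0.0132) and Atp5e, of the central stalk, at -0.31 (edgeR adjusted p = 0.0256). The call of Atp5e also ended with total counts (-0.23, adjusted p = 0.0513). Of the 4 genes, Atp5h alone showed no overlap, with 41.3 to 48.0 CPM at 18 months and 49.5 to 63.9 CPM at 3 months. Atp5k, a membrane subunit at the dimer interface, was the highest at 0.10 (edgeR adjusted p = 0.529). The median of the 16 peaks was -0.19, with 15 negative, and with the abundance scaling it was -0.05, with 9 negative and 7 positive.

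**Figure D2:**
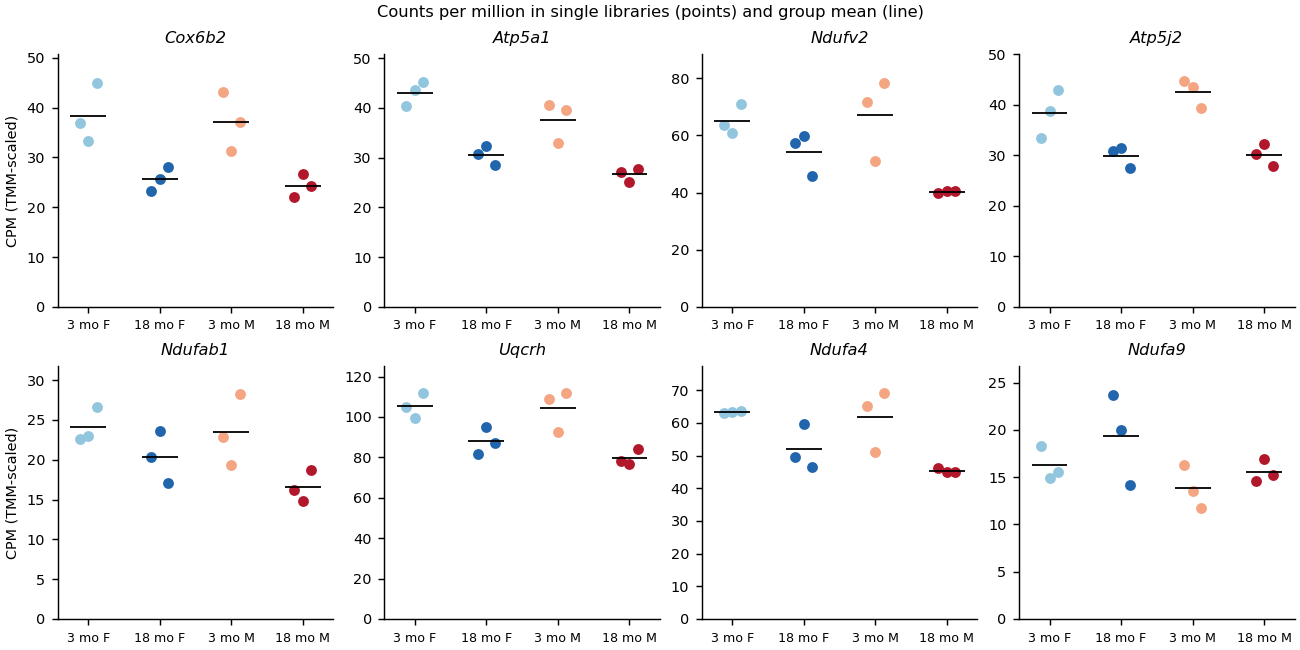
Accessibility in CPM scaled by TMM factors (y axis, from 0) in each library (points) of the 4 groups, with group means (lines), for 8 respiratory gene peaks. In Cox6b2, Atp5a1 and Atp5j2 the 6 libraries of 18 months lie below the 6 of 3 months, in Ndufv2 the males of 18 months lie lowest at about 40.4 CPM, and in Ndufa9 the ages overlap.

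The largest fall of all belonged to Cox6b2, the form of a complex IV subunit known from testis. Its peak, at chr7:4751070-4753422, covers its start and an end of Fam71e2. The libraries of 18 months lay at 22.1 to 28 CPM (median 24.9) and those of 3 months at 31.3 to 45.0 CPM (median 37.0), without overlap. Its log2 fold change was -0.60 ± 0.103 (SE, edgeR adjusted p = 1.91e-05). The other isoforms with a peak, Cox6a2, Cox8b and Cox7a1, are known from heart and muscle, and none passed: their log2 fold changes were -0.20, -0.13 and -0.05 (edgeR adjusted p = 0.37, 0.763 and 0.801). Cox8b had the narrowest peak of the family, 267 bp, with means of 2.49 CPM in old and 2.70 in young mice.

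The 9 genes without a peak centred within 1 kb were Ndufb4c, Ndufaf3, Cox5a, Cox7a2, Atp5b, Cox4i2, Cox7b2, Cox8c and Ndufa4l2. They therefore have no value here. Ndufaf3 and Atp5b do lie under peaks that cover a gene end, but those peaks are so wide, 11913 bp and 4471 bp, that their centres fall 1.49 kb and 1.06 kb away.

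Averaged over the 87 peaks, log2 CPM per library ran from 4.66 to 5.03 at 18 months (mean 4.84) and from 4.84 to 5.05 at 3 months (mean 4.99), so the ages overlapped. The order by group was 5.0 ± 0.0416 for females of 3 months, 4.98 ± 0.121 for males of 3 months, 4.94 ± 0.107 for females of 18 months and 4.73 ± 0.0666 for males of 18 months (SD over 3 mice). The first 3 groups overlapped one another, while all 3 males of 18 months, at 4.66, 4.75 and 4.79, lay below every other library. That group had run 15 to itself. Among the males of 3 months, the library of run 31 was lowest at 4.84, against 5.05 in both others. Complex III was the group of subunits in which the 18-month males lay closest together, at 5.23 to 5.27, and its 3-month libraries ran from 5.42 to 5.58.

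**Figure D3:**
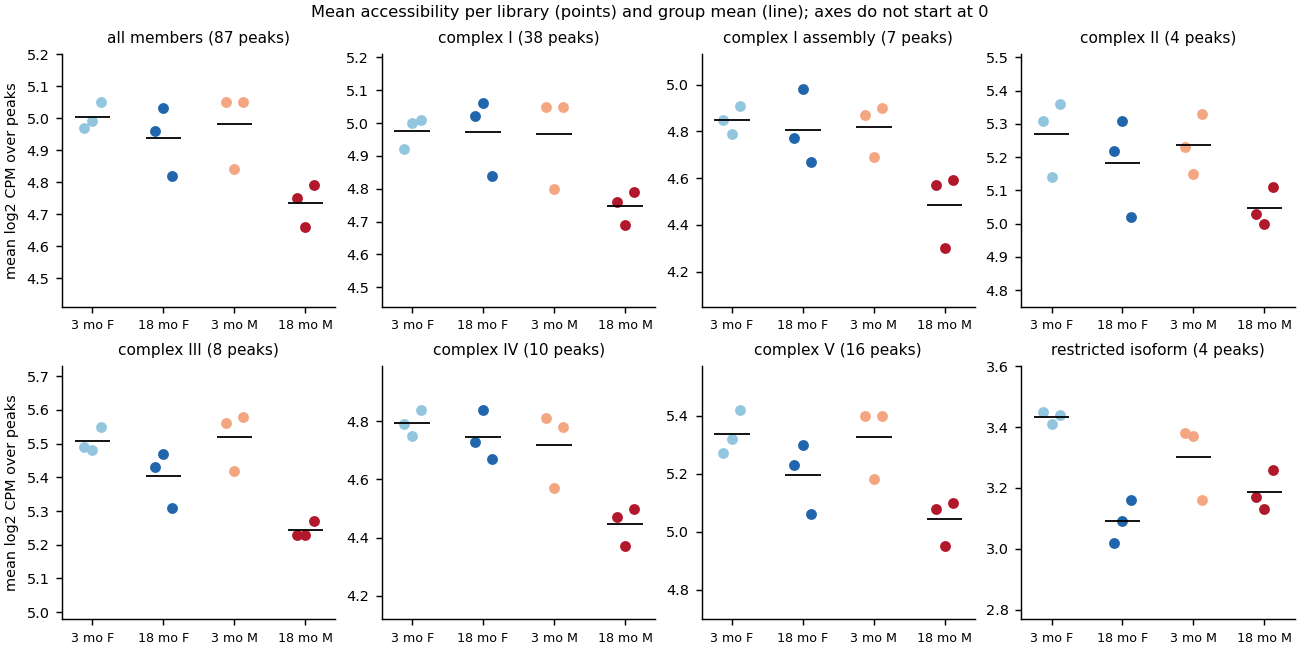
Mean log2 CPM over the peaks of each complex (y axis, not starting at 0) in each library (points) of the 4 groups on the x axis, with group means (lines). Over all 87 peaks the males of 18 months, at 4.66 to 4.79, lie below the other 9 libraries, which range from 4.82 to 5.05.

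Tested within each sex, 2 respiratory gene peaks were lower at 18 months in females, Atp5a1 and Cox6b2, and 22 were lower in males, with 0 higher in either with TMM factors. With the abundance scaling 2 were lower and 1 higher in females, and 2 lower and 3 higher in males. With the width scaling the counts were 2 and 1 in females and 3 and 3 in males. The gene called higher in females was Uqcrq with both (0.29 with each, adjusted p = 0.0211 and 0.048), and in males they were Ndufa7, Ndufs7 and Uqcr11 with both. Of gene-end peaks, the abundance scaling gave 8.98% lower and 6.43% higher in females, and 6.72% and 2.4% in males. The width scaling gave 5.86% and 5.65% of them in females, and 9.57% and 1.87% in males. With TMM factors the unadjusted p was under 0.05 for 8 respiratory peaks (9.2%) in females and 44 (50.6%) in males, beside 26.5% and 43.9% of gene-end peaks and 19566 and 18698 of the 75164 tested peaks. Over all tested peaks, 6.2% were lower and 5.7% higher in females, and 8.18% were lower and 3.21% higher in males. Over protein-coding genes with a tested gene-end peak, 9.11% were lower in females and 25.3% in males, beside 2.3% and 25.3% of the respiratory genes. The median log2 fold change of the respiratory peaks was -0.06 in females and -0.26 in males, and over those protein-coding genes it was -0.07 and -0.24. With TMM factors both genes called in females were also called in males. Atp5a1 had -0.49 in females and -0.50 in males (edgeR adjusted p = 0.00728 and 0.00838), and Cox6b2 had -0.58 and -0.61 (edgeR adjusted p = 0.00292 and 0.00216). In males neither was called with the width scaling. There Atp5a1 also lost its call with the abundance scaling and without the 18-month male 39 or the 3-month male of run 29. In females Cox6b2 lost its call without the 3-month female of run 28.

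The male calls covered 7 complex I subunits, 7 of ATP synthase, 3 of complex III, 2 of complex IV, the assembly factor Ndufaf8, Sdhc and Cox6b2. Ndufv2 was the lowest at -0.73 in males (edgeR adjusted p = 0.000103) and -0.26 in females (edgeR adjusted p = 0.19). The sign was negative in both sexes for 54 peaks, positive in both for 6 and opposite for 27. The difference between the sexes was itself tested as an age by sex interaction, and 0 of the 87 peaks passed by edgeR or by DESeq2, with 7 (8.05%) at an unadjusted p under 0.05, beside 15.2% of gene-end peaks and 10.0% of all tested peaks. Only 0.00532% of all tested peaks passed. The median interaction, male minus female age effect, was -0.20 over the respiratory genes and -0.18 over all protein-coding genes. The lowest was that of Cox7c, a small complex IV subunit, at -0.68 ± 0.217 (SE, edgeR adjusted p = 0.279), chosen here after its value was seen. Its log2 fold change was 0.30 in females and -0.38 in males, and neither passed.

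The count in males depended on single libraries. Without the 3-month male of run 31 it was 38, and without that of run 29 or the 18-month male 39 it was 4. It was 9 without the 3-month male of run 30 or the 18-month male 38, and 12 without the 18-month male 40. Gene-end peaks moved in the same direction: 24.4% were lower in males with all libraries, 38.1% without the male of run 31, 13.1% without that of run 29 and 12.6% without the 18-month male 39, beside 43.7%, 4.6% and 4.6% of the respiratory peaks in these 3 fits. Leaving out the 3-month male of run 30, the 18-month male 38 or the 18-month male 40 gave gene-end shares of 14.8%, 13.9% and 17.6%. The respiratory shares were then 10.3%, 10.3% and 13.8%. Without the male of run 31 the interaction passed for Ndufv2 (-0.63, edgeR adjusted p = 0.0241). Fitted on the 6 male libraries alone, 6 peaks passed: Atp5a1, Atp5j2, Cox6b2, Ndufc1, Ndufv2 and Uqcrc2. On the 6 female libraries alone, 5 passed: Atp5a1, Atp5g2, Atp5h, Atp5j2 and Cox6b2. No share over all tested peaks is given for these single-sex fits, so their counts cannot be set against a background.

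**Figure D4:**
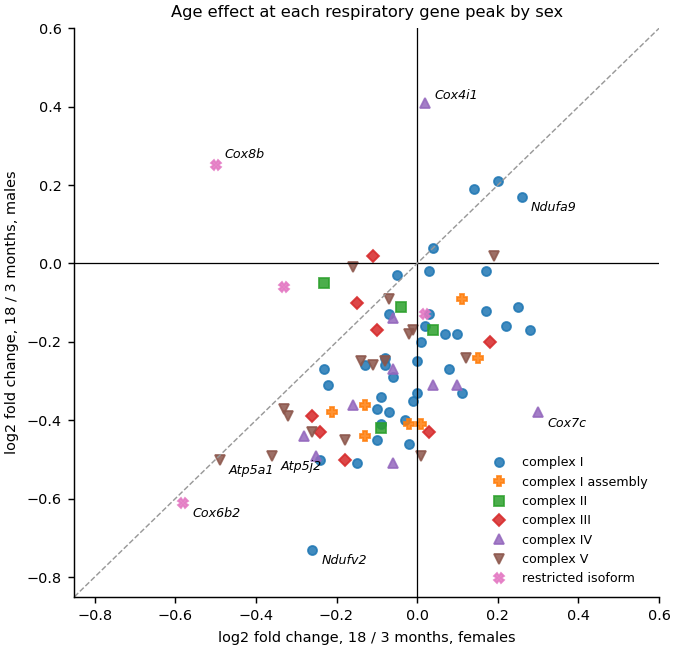
Log2 fold change, 18 over 3 months, in females (x axis) and males (y axis) for the 87 respiratory gene peaks, by complex; the dashed diagonal marks equal values. Most points lie below the diagonal and the interaction passed for 0 of them, while Atp5a1 and Cox6b2 lie near the diagonal, at -0.49 and -0.50 and at -0.58 and -0.61.

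For sex itself, with age as a covariate, 0 of 87 peaks passed by edgeR, beside 0.162% of all tested peaks. By an unadjusted edgeR p under 0.05, 10 (11.5%) passed, beside 11.6% of gene-end peaks. By DESeq2 1 of the 87 passed, for which no share over all tested peaks is given. The median log2 difference, male minus female, was -0.11. It was -0.09 over all protein-coding genes with a tested peak and 0.01 over all tested peaks. The gene passing by DESeq2 was Cox7b, at -0.52 (adjusted p = 0.0301, and 0.0643 by edgeR). It is encoded on the X chromosome, as are Ndufa1 and Ndufb11, whose values were -0.44 and -0.20. Cox7b had 13.4 to 15.1 CPM in females and 10.6 to 11.0 CPM in males at 3 months. Both sexes of 3 months occurred together in runs 29 and 31 only, with 1 mouse of each sex, while run 28 held a female and run 30 a male. Within run 29 Cox7b was at 14.8 CPM in the female and 11.0 in the male, and within run 31 at 15.1 and 10.6. The log2 differences of Ndufa1 and Ndufb11, male minus female, were 0.05 and 0.37 in run 29 and -0.29 and -0.51 in run 31. The median difference over the 87 peaks, male minus female, was 0.06 in run 29 and -0.14 in run 31, also on the log2 scale. With these 4 libraries and the run as a block, 0 of 87 passed by edgeR (1 at an unadjusted p under 0.05), beside 0.0599% of all tested peaks, and Cox7b had -0.47 (adjusted p = 1.0).

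The number of calls differed with the strength of the peaks and with how the libraries were scaled. Among all gene-end peaks, divided into 4 equal groups by mean CPM, 5.6%, 19.2%, 34.7% and 44.0% were lower, from the weakest to the strongest. The respiratory peaks gave 0 of 4, 2 of 26, 9 of 28 and 7 of 29. These counts are small, and whether they depart from that order in the strongest group was not tested. The respiratory peaks were wider and stronger than gene-end peaks in general, with a median width of 1771 bp against 1414.5 bp and a median of 31.5 CPM against 23.8. When the scaling was allowed to follow peak abundance in each library, 6 respiratory peaks were lower and 3 higher, and their median log2 fold change rounded to 0. When it followed peak width, 6 were lower and 2 higher, with a median of -0.02. Gene-end peaks as a whole then gave 15.1% lower and 8.39% higher, and 14.5% lower and 6.68% higher.

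With total counts in place of TMM factors, 13 respiratory peaks were lower and 1 higher, beside 20.2% and 7.23% of gene-end peaks. That scaling moved the median of all tested peaks from 0.02 to 0.10, and the respiratory median was then -0.08. Ndufv2, Ndufab1, Atp5a1, Atp5j2 and Cox6b2 were lower under all 6 fits compared: TMM, total counts, DESeq2 size factors, the abundance and width scalings, and DESeq2's own test. Ndufa7 was the gene called higher with total counts (0.24, adjusted p = 0.0249). It was also higher with the abundance scaling (0.34, adjusted p = 0.00118) and the width scaling (0.36, adjusted p = 0.00126), and was not called with TMM factors (0.17, adjusted p = 0.204). Ndufs7, a core iron-sulphur subunit with the widest peak of the family (5008 bp), was called higher with the abundance and width scalings (0.25 with each) and stood at 0.01 with TMM factors. Whether the relation of fold change to abundance is technical was not tested.

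**Figure D5:**
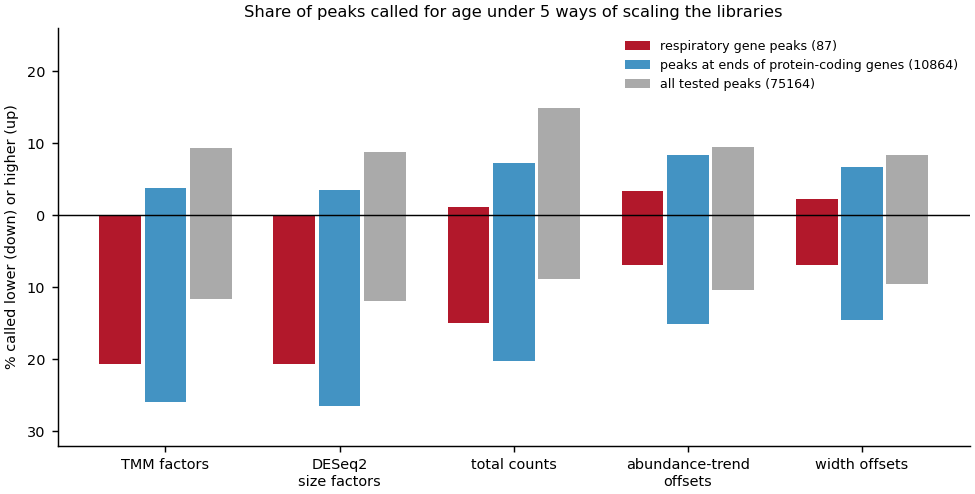
Percentage of peaks called higher (up) or lower (down) at 18 months (y axis) under 5 ways of scaling the libraries (x axis), for the 87 respiratory gene peaks, all gene-end peaks and all tested peaks. Respiratory peaks go from 20.7% lower and 0 higher with TMM factors to 6.9% lower and 3.45% higher with the abundance scaling, and their share of lower calls stays under that of gene-end peaks in each.

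Many of these peaks belong to more than one gene. In 41 of the 87 the centre also lay within 1 kb of an end of another protein-coding gene, and 9 of these 41 were lower, beside 9 of the 46 with no such neighbour. For 23 respiratory genes the start lay head to head with that of a neighbour on the opposite strand, and 5 of these were lower: Atp5h, Ndufa4, Ndufaf2, Uqcr10 and Uqcrh. Atp5j starts 148 bp from Gabpa, the ETS factor named above, and their common peak had a log2 fold change of -0.16 (edgeR adjusted p = 0.251). Sdhd starts 52 bp from Timm8b, of the mitochondrial import machinery, Ndufb5 308 bp from the mitochondrial ribosomal gene Mrpl47, and Ndufa7 10 bp from the ribosomal gene Rps28. A count at such a peak cannot be assigned to either gene.

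Promoter windows from RefSeq, 250 bases before to 50 after the start, were on hand for 78 of the 96 genes and overlapped the peak in 70, of which 15 were lower at 18 months. The NRF1 core was in 12 of the 70 windows (17.1%), against 5.99% of the 8027 windows of protein-coding genes that overlapped their peak. The YY1 core was in 7 (10.0%, against 3.61%) and the oestrogen-related receptor site in 2, those of Atp5g3 and Sdhd (2.86%, against 0.224%). The ETS core was in 18 (25.7%, against 20.4%) and the CCAAT box in 31 (44.3%, against 39.6%). The GC box was less common, in 30 (42.9%, against 67.0%), and the median GC content was 59.0% against 61.7%. Both strands were searched. These shares are descriptions and were not tested.

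Among the 15 windows of genes that were lower, the NRF1 core was in 2 and the YY1 core in 2, those of Atp5j2 and Ndufc1. The oestrogen-related receptor site was in 0, the ETS core in 4, the GC box in 7 and the CCAAT box in 9. Among the 55 windows of genes that were not called, the counts in that order were 10, 5, 2, 14, 23 and 22. Apart from Atp5g2 and Cox6a1, shown above, the NRF1 core was in Atp5k, Atp5l, Ndufa6, Ndufa8, Ndufa11, Ndufaf4, Ndufaf5, Sdhb, Uqcr11 and Uqcrc1, none of which passed the age test over both sexes.

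Other genes of respiration were counted in the same way. Of 74 peaks for cytochrome c, cytochrome c1, further assembly factors, nuclear regulators and citric acid cycle enzymes, 16 (21.6%) were lower and 0 higher, beside 25.9% of gene-end peaks lower, with a median log2 fold change of -0.16. They comprised 8 of 39 assembly factors, 6 of 19 regulators, 1 of 14 cycle enzymes and 1 of 2 cytochrome genes. The cytochrome gene was Cyc1, which encodes cytochrome c1 of complex III, at -0.52 on the log2 scale (edgeR adjusted p = 0.000142). Its symbol lies outside the rule, so it is not among the 8 complex III peaks above. Taco1, a translational activator of a mitochondrially encoded complex IV subunit, had the lowest value. Its mean was 57.8 ± 6.64 CPM in young and 39.3 ± 3.81 in old mice (SD, n = 6 per age), a change of -0.55 ± 0.0964 on the log2 scale (SE, edgeR adjusted p = 2.43e-05). Nrf1, which encodes the factor whose core was searched, averaged 58.2 ± 6.34 CPM in young and 40 ± 5.11 in old mice (SD, n = 6 per age), with a log2 fold change of -0.54 ± 0.0951 (SE, edgeR adjusted p = 2.71e-05). In both the ages did not overlap. Ppard, a nuclear receptor of fatty acid oxidation, had the highest value at 0.20 (edgeR adjusted p = 0.18), and it was called higher with total counts (0.28, adjusted p = 0.0227).

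As comparison lists, 3 further sets were counted. Of 15 glycolysis genes with a peak, 1 was higher and 2 were lower, with a median of 0.08. Of 79 cytosolic ribosomal protein genes, 8 (10.1%) were lower and 0 higher, with a median of -0.10. Of 35 proteasome genes, 10 (28.6%) were lower and 0 higher, with a median of -0.19. Over gene-end peaks, 25.9% were lower and 3.76% higher. None of these lists was tested against the respiratory genes.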

How the data were processed

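ATAC-seq was measured in 12 bone marrow libraries. The authors deposited whole-number counts for 75281 consensus peaks in these libraries; no value was below 1, and 985 values stood at 1, which compresses fold changes of the weakest peaks. The submitters' processing notes name Trimmomatic, BWA, MACS2, DiffBind, edgeR and the build mm10, without versions or roles, and duplicate removal and read shifting are not given in the sources used here. Peaks were assigned to RefSeq genes on GRCm38.p6 by position. The genes described, the other gene lists and the tests were chosen with earlier results of these data known.

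A peak was tested where at least 2 libraries exceeded 1 CPM (75164 peaks). The test was edgeR's quasi-likelihood F test (version 4.0.16, glmQLFit and glmQLFTest, R 4.3.3) after TMM scaling: sex and age as terms over all libraries, and 4 group means for effects within a sex and the interaction. P-values were adjusted by Benjamini-Hochberg across the 75164 peaks, and 0.05 was the threshold. SE is the log2 fold change divided by the root of F. Nothing in the labels beyond separate mouse numbers describes how mice were housed or sampled, so p-values measure the spread between these mice. Counts without molecular identifiers are not independent molecules.

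Named with values were, in complex I, the 5 lowest and 2 highest fold changes, in complexes III, IV, V and the assembly factors the 2 lowest and the highest, all of complex II, and every tissue-restricted isoform. Of the other pathway genes, the 2 lowest and the highest were named, and of markers the 2 largest changes of the list that moved most. Genes named beyond that passed the age test in some fit, are needed to explain a count, carry an NRF1 core, lie on the X chromosome or share a start with a neighbour. Cox7c was named after its interaction value was seen.

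Alternatives were total counts, DESeq2 size factors, offsets fitted by a loess curve on abundance or on width with limma 3.58.1, DESeq2 1.42.0, no filter, a filter of 4 CPM in 6 libraries, each library left out, peaks within 3 kb, the nearest peak, start sites only, age alone and single sexes, and, added after the data were seen, sex at 3 months in runs 29 and 31 with the run as a block.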

Additional observations from a re-analysis of the deposited data

Results flagged for a closer look

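Of 88 checks of single libraries within an age, 5 found a library that stood apart from the other 5; chance flags about 1 in 20. At Ndufa4, the 18-month female 36 was high at 59.5 CPM and the 3-month male of run 31 low at 51.0 CPM. The same male had the lowest mean over complex IV at 3 months, a log2 CPM of 4.57. The 3-month male of run 30 had the lowest mean over the tissue-restricted isoforms at that age, a log2 CPM of 3.16, and the highest sum of neutrophil and monocyte markers, 523 CPM.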

How the results depend on the processing

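The count of respiratory gene peaks called for age was 18 with TMM factors, 9 with the abundance scaling (3 higher, 6 lower), 8 with the width scaling (2 higher, 6 lower) and 10 to 24 with 1 library left out, 10 being without the 18-month male 39. Of the 18 calls, 10 held without any single library; those of Atp5e, Atp5o, Cox6a1, Cox7b, Ndufab1, Ndufaf2, Ndufb9 and Ndufc1 ended without at least 1. In females the count was 2 with TMM factors, 5 on female libraries alone, 4 with DESeq2, 3 with the abundance scaling (1 higher, Uqcrq), 3 with the width scaling (1 higher, Uqcrq), 4 within 3 kb, 1 at start sites only and 1 to 5 with 1 library left out, 1 being without the 3-month female of run 28. In males it was 22 with TMM factors, 9 with total counts, 5 with the abundance scaling (3 higher, 2 lower), 6 with the width scaling (3 higher, 3 lower), 6 on male libraries alone and 4 to 38 with 1 library left out. The interaction gave 0 and, with 1 library left out, 0 to 1. Sex gave 0, 1 with the abundance scaling, 1 with DESeq2 and 0 to 1 with 1 library left out; the gene was Cox7b each time. The count for other respiratory genes, 16, moved by less than 1.5 times under each alternative (11 to 20). Of the named values under an alternative, 614 kept their direction and side of the threshold, 31 lost the call, 11 gained one and 25, of 9 genes, changed sign. Among the 25 only Uqcrq, at 0.20 with the abundance scaling (adjusted p = 0.0197), was called in either fit. Uqcrq was also at 0.15 with the width scaling, 0.07 with total counts, 0.01 with the stricter filter and -0.06 to 0.05 with 1 library left out. With total counts Sdhb and Sdhd were at 0.01 and Cox7a1 at 0.03. With the abundance scaling Sdhb was at 0.12 and Sdhd at 0.11, and with the width scaling Sdha was at 0.01, Sdhb at 0.13 and Sdhd at 0.06. Within 3 kb Cox4i1 was at -0.22, Cox6a2 at 0.19 and Cox8b at 0.21. With 1 library left out Ndufaf7 ran from -0.03 to 0.06 and Cox8b from -0.28 to 0.01. The causes were not tested. No paired analysis was possible by mouse because no mouse number occurs in 2 groups; the sexes at 3 months were compared within the 2 runs they shared, an alternative chosen after seeing the data, with 0 calls. Depth varied 7668099 to 12756647 counts, and peaks of a few CPM, such as Cox8b and Ndufb4b, have SEs above 0.2.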
